A study of Mus musculus with 8 samples.

Results

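The 10 genes described here encode the NF-κB transcription factors and the proteins that hold them back. They were picked by gene symbol from the 52636 genes of a bulk RNA sequencing count matrix, and all 10 were found. The canonical subunits are Nfkb1, Rela and Rel, the non-canonical subunits Nfkb2 and Relb, the IκB proteins Nfkbia, Nfkbib and Nfkbie, and the atypical IκB proteins Nfkbiz and Bcl3. The cells were leptin receptor positive (LEPR+) mesenchymal stem cells, the perivascular stroma of mouse bone marrow, sorted and re-sorted from collagenase-digested long bone marrow of C57BL/6 mice as living cells without CD45, Ter119, CD31 and CD144. One group of mice received LTβR-Ig, a soluble decoy that captures lymphotoxin β receptor ligands, and the other HEL-Ig, a control IgG1 against hen egg lysozyme. Both were given intravenously at 150 µg once per week for 3 weeks. There were 4 libraries per group. The series' design counts the libraries as 4 pairs, but what joins a pair is not stated, nor whether the replicate numbers mark the pairs. The labels do not say how many mice went into a library or whether libraries came from separate mice, so p-values measure only the spread between these libraries, which may be technical. The decoy was given to the whole animal, so cells other than LEPR+ cells can be affected as well.

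NF-κB proteins bind DNA as dimers and are kept inactive in the cytoplasm by IκB proteins. In the canonical pathway an activated kinase complex marks IκB for destruction, which frees dimers such as the Rela protein with the processed product of Nfkb1. In the non-canonical pathway, which the lymphotoxin β receptor is known to drive in stromal cells, the kinase NIK leads to processing of the Nfkb2 precursor and release of dimers with RelB. Genes for several IκB proteins and subunits are themselves known targets of NF-κB, as feedback.

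The promoters of these genes are shown first because many of them carry the DNA motif that NF-κB reads. RefSeq promoter windows (GRCm38.p6, from 250 bases before to 50 after a start site) were at hand for 7 of the 10 genes: Nfkbie, Nfkbia, Nfkbib, Nfkb2, Rel, Rela and Bcl3. No window was at hand for Nfkb1, Relb and Nfkbiz. The κB consensus was taken as GGGRNWYYCC, where R is A or G, N any base, W A or T and Y C or T. Stretches that miss a base of it were not counted. This consensus was found on either strand in windows of 5 of the 7, against 5.14% of the 27025 genes with a window. The 5 were Nfkbie, Nfkbia, Nfkb2, Rel and Bcl3, while the windows of Rela and Nfkbib held no consensus match. The windows of the 7 genes held 56.3 to 75% G and C, where the median over all windows was 52.7%. Nfkb2 had 3 windows. The part of base composition and of the number of windows in this count was not tested. A match of letters does not show that a factor binds there. The 250 bases before the start of Nfkbie (chr17:45555450-45555699, plus strand) and of Nfkbia (chr12:55492648-55492897, minus strand) are given because these were the IκB genes whose levels separated the groups. They are written 5′ to 3′ along the gene, with the κB match in capitals.
Nfkbie: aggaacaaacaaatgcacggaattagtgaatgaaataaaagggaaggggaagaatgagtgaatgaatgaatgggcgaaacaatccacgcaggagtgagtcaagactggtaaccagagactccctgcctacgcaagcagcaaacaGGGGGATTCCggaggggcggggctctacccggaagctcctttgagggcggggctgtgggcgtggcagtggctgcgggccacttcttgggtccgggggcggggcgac
Nfkbia: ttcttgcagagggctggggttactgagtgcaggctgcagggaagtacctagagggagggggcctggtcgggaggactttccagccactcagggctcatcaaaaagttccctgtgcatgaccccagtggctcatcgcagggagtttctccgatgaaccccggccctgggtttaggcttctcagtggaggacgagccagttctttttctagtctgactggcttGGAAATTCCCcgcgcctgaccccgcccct
The match lies 106 to 97 bases before the start in Nfkbie and 29 to 20 bases before it in Nfkbia. It stands on the gene's strand in Nfkbie and on the other strand in Nfkbia.

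In Nfkb2 the table has 3 start sites. The first has 2 runs of matches just before it and the second has a match on each side, of which the one after the start lies inside the window of the third start as well. The matches are shown with 10 bases on each side, again in capitals and 5′ to 3′ along the gene. The sites of Rel and Bcl3, whose groups overlapped, follow for comparison.
Nfkb2, first start: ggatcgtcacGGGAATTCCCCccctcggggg
Nfkb2, first start, nearer site: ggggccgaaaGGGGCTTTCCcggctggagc
Nfkb2, second start, site before it: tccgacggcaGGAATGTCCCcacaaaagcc
Nfkb2, second start, site after it: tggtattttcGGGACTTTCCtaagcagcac
Rel: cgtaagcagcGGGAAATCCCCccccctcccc
Bcl3: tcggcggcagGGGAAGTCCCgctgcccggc
The Nfkb2 sites lie on chromosome 19, plus strand, at 46304698 to 46304708, 46304726 to 46304735, 46305459 to 46305468 and 46305705 to 46305714. The Rel site lies on chromosome 11, minus strand, at 23771051 to 23771061, from 92 to 82 bases before the start. The Bcl3 site lies on chromosome 7, minus strand, at 19822744 to 19822753, from 3 to 12 bases after the start. Rel and Bcl3 thus held a match and showed overlapping groups. The intervals of their log2 fold changes, given below, were -0.94 to 0.99 and -0.69 to 0.85, so a lower level is not left out for either. Rela and Nfkbib, without a match, had intervals of -0.19 to 0.50 and -0.61 to 0.25. For these genes a lower level is not left out either. Whether a consensus match goes with a lower level was not tested.

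Each library held between 52378101 and 64403177 counts, and the gene with the fewest, Nfkb2 in LTβR-Ig replicate 2, had 257 counts. Levels are given as CPM, counts scaled to the library size after TMM, a correction for differences in RNA composition. The sorted population carried its defining transcripts, with Lepr between 3159 and 4498 CPM over the 8 libraries. The transcript of the excluded surface protein CD45, Ptprc, lay between 21.7 and 61.1 CPM, and that of CD31, Pecam1, between 4.05 and 44.4 CPM. Transcripts of other excluded cells were abundant. The 10 erythroid markers summed to 2.13 to 5.51% of TMM-scaled counts in control and 2.16 to 4.17% in LTβR-Ig libraries, as much as the 8 LEPR+ stromal markers (2.40 to 3.08 and 2.66 to 3.44%), and the neutrophil gene S100a8 lay between 802 and 2001 CPM. Summed levels overlapped between the groups in 12 of 12 lists, of 10 other cell types, of LEPR+ stroma and of dissociation stress genes, but a sum follows its most abundant genes. Gene by gene, the log2 fold change was above 0 in 8 of 8 megakaryocyte and 9 of 9 endothelial markers (medians 0.62 and 0.36). It was also above 0 in 7 of 8 osteoblast markers (median 0.53). Below 0 were 11 of 11 neutrophil (median -0.19), 9 of 10 erythroid (median -0.13) and 7 of 9 B cell markers (median -0.24). So were 7 of 12 macrophage and monocyte, 4 of 6 plasma cell and 5 of 7 tested T and NK cell markers. The same held for 4 of 5 tested Schwann cell and 6 of 8 LEPR+ stromal markers, and for 8065 of all 16045 genes tested. At an unadjusted edgeR p under 0.05, 2 LEPR+ stromal and 1 neutrophil marker were lower, against 2.93% of all genes. Higher were 2 osteoblast, 1 plasma cell and 1 Schwann cell marker, against 3.39%. The groups did not overlap in the LEPR+ stromal markers Kitl (1804 ± 108 CPM in control, 1206 ± 133 with LTβR-Ig) and Pdgfra (427 ± 23.6 and 348 ± 41.3 CPM), both lower, nor in the osteoblast marker Alpl (276 ± 76.6 and 534 ± 93.4 CPM) and the plasma cell marker Xbp1 (209 ± 21.7 and 283 ± 38.7 CPM), both higher (SD, n = 4 each). Their edgeR adjusted p was 0.125, 0.649, 0.223 and 0.462, and the part of cell composition in the results below was not tested. The first principal component (19.5% of the variance) did not separate the treatments: control replicates 1 and 2 and LTβR-Ig replicates 1 and 2 lay on one side, and those numbered 3 and 4 on the other. The labels give no reason for this. On the second component control replicates 1 to 4 lay at -34.6, -29.3, -29.3 and 0.689. LTβR-Ig replicates 1 to 4 lay at 0.629, 51.3, 23.9 and 16.8, so the groups overlapped only narrowly there. Log2 ratios of mean CPM within each set of numbers had the same sign in 7 of the 10 genes. They went from 0.10 within replicates 1 and 2 to -0.25 within replicates 3 and 4 in Nfkb1, from -0.62 to 0.56 in Rel and from 0.26 to -0.12 in Bcl3.

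All 10 genes passed the filter on low counts and were among the 16045 genes tested with edgeR's quasi-likelihood test. None passed an adjusted p of 0.05 over all genes, a threshold that 0.0374% of genes passed. At an unadjusted p under 0.05, 4 of the 10 were lower with LTβR-Ig (Nfkbie, Relb, Nfkbia and Nfkb2), against 2.93% of all genes. At the same limit 0 of the 10 were higher, against 3.39% of all genes, and 0 were higher by DESeq2 (5.43% of all genes) and by limma-voom (4.28%). In 5 of the 10, these 4 and Nfkbiz, every LTβR-Ig library lay below every control library, against 2.53% of all genes, and in 0 of 10 the groups separated the other way, against 2.36%. The median log2 fold change was -0.39 over the 10 genes and 0.00 over all genes tested. These genes were chosen with earlier results of the same data known, so the counts describe them and are not independent evidence. In bulk RNA, fewer cells that express a gene and less RNA of it per cell cannot be told apart.

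**Figure D1:**
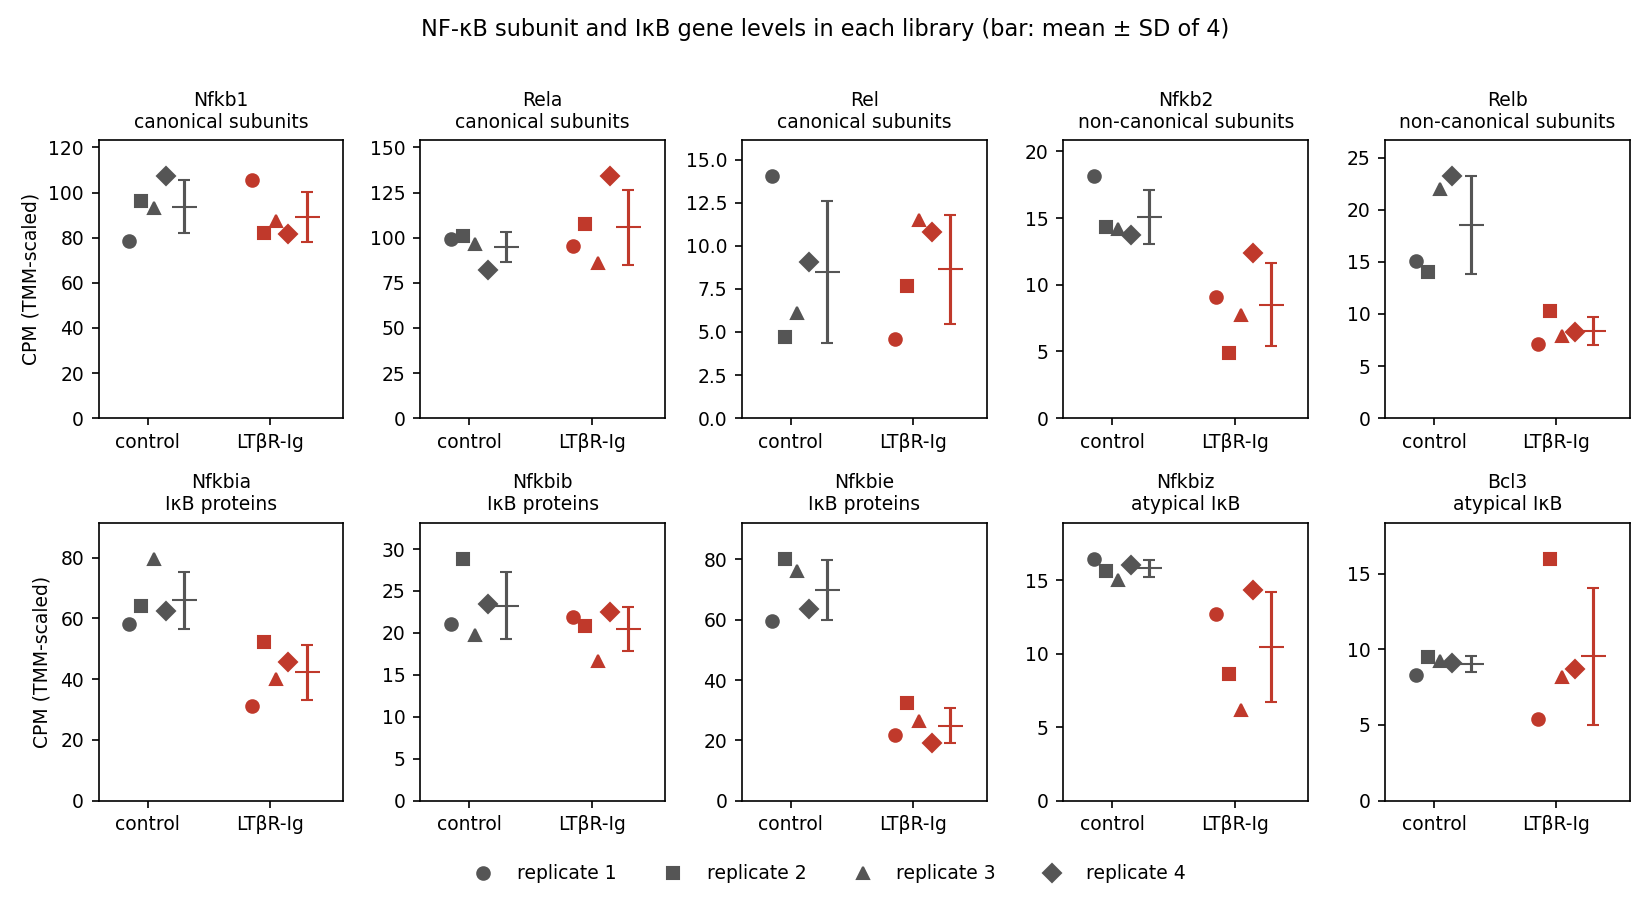
CPM of each gene in each library, with the axis of each panel starting at 0. Points are libraries, marked by replicate number, and the bar beside them is the mean ± SD of 4. In Nfkb2, Relb, Nfkbia, Nfkbie and Nfkbiz the LTβR-Ig libraries (red) all lie below the control libraries (grey), and in the other 5 genes the groups overlap.

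The IκB proteins, which bind NF-κB dimers in the cytoplasm, held the gene with the largest difference. Nfkbie encodes IκBε (ENSMUSG00000023947.7, chromosome 17, 45555703 to 45563169 in mm10, plus strand). It was at 59.6, 80.2, 76.1 and 63.5 CPM in control replicates 1 to 4 and at 21.6, 32.3, 26.3 and 19.2 CPM in LTβR-Ig replicates 1 to 4. The highest LTβR-Ig library was therefore well below the lowest control. The means were 69.8 ± 9.86 and 24.8 ± 5.78 CPM (SD, n = 4 each), a 2.81-fold difference. The log2 fold change was -1.49 (SE 0.19, 95% interval -1.93 to -1.05, edgeR adjusted p = 0.061), and the gene ranked 9 of 16045 by p. It passed the threshold in DESeq2 (adjusted p = 1.4e-09), in limma-voom with sample weights (adjusted p = 0.036) and in edgeR after a stricter filter on low counts (adjusted p = 0.0229). In these tests 0.998, 0.0873 and 0.155% of all genes passed with a lower level. Within replicates 1 and 2 the log2 ratio of mean CPM was -1.37, and within replicates 3 and 4 it was -1.62.

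Nfkbia encodes IκBα, the inhibitor made quickly after NF-κB activation (ENSMUSG00000021025.8, chromosome 12, 55489410 to 55492647, minus strand). Control replicates 1 to 4 were at 58.1, 64.0, 79.6 and 62.3 CPM and LTβR-Ig replicates 1 to 4 at 31.0, 52.2, 40.1 and 45.6 CPM. The groups did not overlap, and LTβR-Ig replicate 2 lay nearest to the controls. The log2 fold change was -0.64 (SE 0.18, 95% interval -1.06 to -0.23, edgeR unadjusted p = 0.00659, adjusted p = 0.45), and DESeq2 gave an adjusted p of 0.0588.

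Nfkbib encodes IκBβ, an inhibitor that is known to respond less to NF-κB itself (ENSMUSG00000030595.15, chromosome 7, 28758251 to 28767512, minus strand). It was at 21.01, 28.8, 19.7 and 23.5 CPM in the controls and at 21.9, 20.9, 16.7 and 22.5 CPM with LTβR-Ig, so that 3 of 4 LTβR-Ig libraries lay within the control range. Its log2 fold change was -0.18 (95% interval -0.61 to 0.25, edgeR adjusted p = 1). Exons of Nfkbib share 42 bases with Sirt2 and 314 with Ccer2 on the other strand. Sirt2 was at 36.2 to 45.4 CPM without and 32.9 to 35.9 CPM with the decoy, so it was lower without overlap. Ccer2 was at 0 in each library. Without a stated strand setting reads in shared bases cannot be told apart, and the part of Sirt2 in the Nfkbib counts was not tested.

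The ratio of Nfkbie to Nfkbib, both as CPM per kilobase of exon, was 2.02, 1.98, 2.75 and 1.93 in the controls and 0.703, 1.1, 1.12 and 0.605 with LTβR-Ig. IκBε transcripts thus outnumbered those of IκBβ in every control, and in LTβR-Ig replicates 1 and 4 they were fewer. Of the summed CPM per kilobase of the 3 IκB genes, Nfkbie made up 30.7 ± 1.68% without and 18.6 ± 3.16% with the decoy (SD, n = 4 each), and Nfkbib 14.5 ± 2.52 and 21.9 ± 4.42%. For both shares the groups did not overlap. The share of Nfkbia, 54.9 ± 3.75 and 59.4 ± 4.53%, overlapped between the groups.

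The non-canonical subunits were both lower. Relb encodes RelB, the transactivating partner in non-canonical dimers (ENSMUSG00000002983.17, chromosome 7, 19606217 to 19629438, minus strand). It was at 15.1, 14.0, 22.0 and 23.2 CPM in control replicates 1 to 4 and at 7.13, 10.2, 7.92 and 8.25 CPM in LTβR-Ig replicates 1 to 4. Controls 3 and 4 were higher than controls 1 and 2, and the LTβR-Ig libraries lay below all of them. The means were 18.6 ± 4.69 and 8.39 ± 1.32 CPM (SD, n = 4 each), a 2.21-fold difference. Relb had a log2 difference of -1.15 (SE 0.25, 95% interval -1.71 to -0.58, edgeR unadjusted p = 0.0014, adjusted p = 0.226), and DESeq2 called it (adjusted p = 0.000664). The log2 ratio was -0.74 within replicates 1 and 2 and -1.48 within replicates 3 and 4.

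Nfkb2 encodes the precursor whose processing is the output of the non-canonical pathway (ENSMUSG00000025225.14, chromosome 19, 46304320 to 46312385, plus strand). The controls were at 18.1, 14.3, 14.2 and 13.7 CPM and the LTβR-Ig libraries at 9.09, 4.85, 7.71 and 12.4 CPM. Control replicate 1 stood above the other controls, and LTβR-Ig replicate 4 lay just below the lowest control. The means were 15.1 ± 2.04 and 8.51 ± 3.13 CPM (SD, n = 4 each), a 1.77-fold difference. In the edgeR fit the log2 fold change was -0.83 (SE 0.30, 95% interval -1.51 to -0.14, edgeR unadjusted p = 0.0239, adjusted p = 0.657), and the unadjusted p rose to 0.0645 when control replicate 1 was left out and to 0.0556 when LTβR-Ig replicate 3 was. In contrast to Relb, the log2 ratio was -1.22 within replicates 1 and 2 and -0.47 within replicates 3 and 4; whether these differ was not tested. Nfkb2 shares 299 exon bases with Psd and 531 with a noncoding locus on the other strand. Psd, at 3.26 to 4.20 CPM without and 1.11 to 3.11 CPM with the decoy, was lower as well, and its part in the Nfkb2 counts was not tested. No level was at hand for the noncoding locus, and its part was not tested either.

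**Figure D2:**
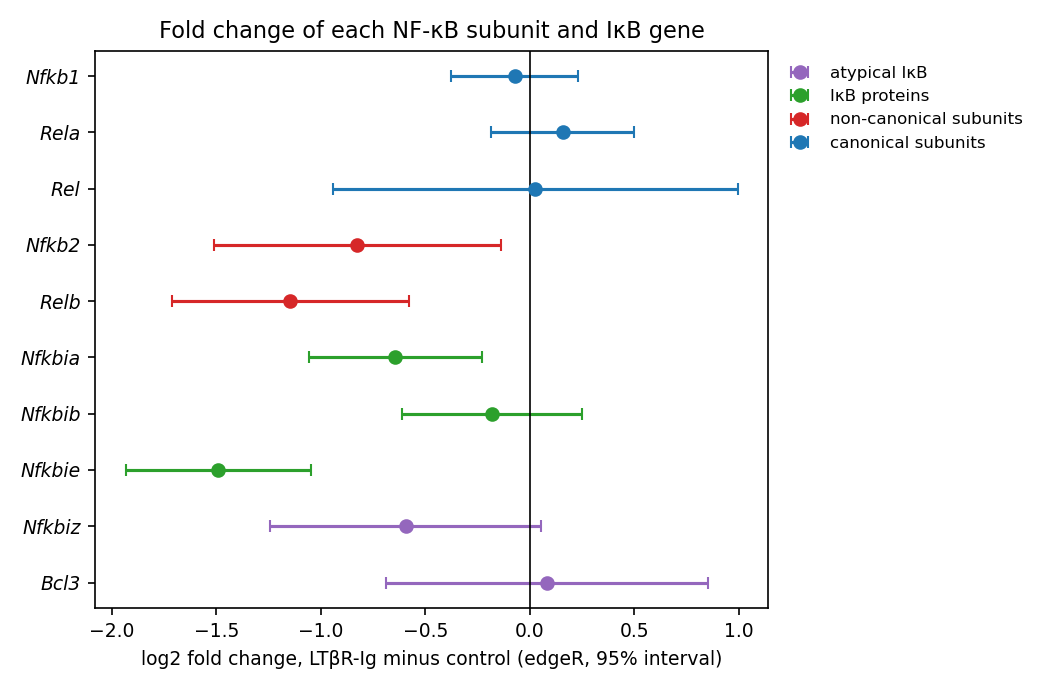
Log2 fold change of each gene, LTβR-Ig minus control, with its 95% interval from the edgeR fit; colours mark the classes. The intervals of Nfkb2, Relb, Nfkbia and Nfkbie lie below 0, that of Nfkbiz reaches 0.05, and those of the other 5 genes span 0.

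The canonical subunits showed overlapping groups. Rela encodes the main transactivating subunit (ENSMUSG00000024927.7, chromosome 19, 5637483 to 5648130, plus strand). It was at 99.4, 101, 96.6 and 82.3 CPM in the controls and at 95.1, 108, 86.0 and 134 CPM with LTβR-Ig, where only replicates 2 and 4 exceeded the controls. On the log2 scale the difference was 0.16 (SE 0.15, 95% interval -0.19 to 0.50, edgeR adjusted p = 1). Nfkb1 encodes the canonical DNA-binding partner and its precursor (ENSMUSG00000028163.17, chromosome 3, 135584655 to 135691547, minus strand). It was at 78.5, 96.1, 93.2 and 107 CPM and at 105, 82.1, 87.4 and 81.6 CPM, and the log2 difference was -0.073 (SE 0.13, edgeR adjusted p = 1), with -0.38 and 0.23 as the bounds of its 95% interval. For both genes the interval leaves out a 2-fold difference in either direction, and it does not show that the levels were equal.

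Rel encodes c-Rel, a subunit best known from lymphocytes and myeloid cells (ENSMUSG00000020275.9, chromosome 11, 23736847 to 23770970, minus strand). Its libraries were widely spread in both groups, at 14.0, 4.72, 6.12 and 9.04 CPM in the controls and 4.57, 7.66, 11.5 and 10.8 CPM with LTβR-Ig. Its log2 fold change, 0.025 (SE 0.43), had a 95% interval from -0.94 to 0.99, so that a difference of nearly 2-fold either way is not left out (edgeR adjusted p = 1). The ratio within replicates 1 and 2 lay below 0 and that within replicates 3 and 4 above it, as given above. Rel was lowest in LTβR-Ig replicate 1 and control replicate 2. These libraries also had the lowest summed levels of 11 neutrophil markers, 0.453 and 0.398% of TMM-scaled counts against 0.6 to 0.938% in the other 6 libraries, with none of the 11 at 0 throughout. Ptprc was lowest in the same libraries of each group, at 39.9 and 21.7 CPM. Those libraries had the lowest sums of macrophage and monocyte (0.113 and 0.0988%), T and NK cell and erythroid markers and of dissociation stress genes. In the remaining lists they did not both have the lowest sums. Rel was highest in control replicate 1, whose neutrophil sum, 0.858%, lay below the 0.938% of control replicate 4. The neutrophil sums overlapped between the groups, at 0.398 to 0.938% in control and 0.453 to 0.904% with LTβR-Ig, and the part of other cells in the Rel counts was not tested.

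The atypical IκB proteins act in the nucleus as cofactors of NF-κB. Nfkbiz encodes IκBζ, a quickly induced cofactor (ENSMUSG00000035356.16, chromosome 16, 55811375 to 55838899, minus strand). The controls were tightly grouped at 16.4, 15.6, 15.04 and 16.1 CPM, whereas the LTβR-Ig libraries were at 12.7, 8.62, 6.16 and 14.4 CPM. All 4 lay below the controls, with a spread of 3.74 CPM (SD) against 0.607 CPM in the controls. On the log2 scale Nfkbiz differed by -0.60 (SE 0.28, 95% interval -1.24 to 0.05, edgeR unadjusted p = 0.067, adjusted p = 0.837). Bcl3, which encodes a cofactor of homodimers of the DNA-binding subunits (ENSMUSG00000053175.17, chromosome 7, 19808462 to 19822770, minus strand), was at 8.27, 9.51, 9.22 and 9.09 CPM in the controls. With LTβR-Ig it was at 5.36, 16.0, 8.15 and 8.72 CPM, so that replicate 2 was above and the other replicates below the control mean. The fitted difference was 0.082 on the log2 scale (95% interval -0.69 to 0.85, edgeR adjusted p = 1), and -0.28 without LTβR-Ig replicate 2. Bcl3 shares 161 exon bases with an antisense locus that had at most 0.189 CPM in any library.

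Levels of different genes were compared as CPM per kilobase of the union of a gene's exons. In control libraries the order was Nfkbia at 41.0 ± 5.85, Rela at 30.9 ± 2.75, Nfkbie at 22.9 ± 3.24, Nfkbib at 10.7 ± 1.86 and Nfkb1 at 7.77 ± 0.984 CPM per kilobase (SD, n = 4 each). It went on with Relb at 4.78 ± 1.21, Bcl3 at 3.65 ± 0.214, Nfkb2 at 3.29 ± 0.446, Nfkbiz at 3.15 ± 0.121 and Rel at 1.13 ± 0.551 CPM per kilobase (SD, n = 4 each). Neighbours in this order were separated in all control libraries, except that Relb overlapped Bcl3, Bcl3 overlapped Nfkb2 and Nfkb2 overlapped Nfkbiz. With all exons as the length, transcripts of IκBα, RelA and IκBε were thus the most abundant of the family in control LEPR+ cells, and those of c-Rel the least. With LTβR-Ig, Nfkbie was at 8.16 ± 1.90 CPM per kilobase, below the 9.45 ± 1.22 of Nfkbib, and Rela at 34.4 ± 6.78 was above Nfkbia at 26.2 ± 5.55 (SD, n = 4 each), although the libraries of each pair of genes overlapped. The level of Nfkb1 depends on its length, 12061 bases for all exons against 4149 for the longest transcript. With the longest transcript its control mean was 22.6 CPM per kilobase. It then came before Nfkbib and close to Nfkbie, at 23.2 CPM per kilobase.

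Subunits were then set against each other within a library, which does not depend on the scaling between libraries. The ratio of Relb to Rela, per kilobase, was 0.12, 0.11, 0.18 and 0.223 in the controls and 0.0593, 0.0753, 0.0728 and 0.0487 with LTβR-Ig, with no overlap. The ratio of Nfkb2 to Nfkb1 was 0.608, 0.391, 0.401 and 0.337 in the controls and 0.227, 0.155, 0.232 and 0.399 with LTβR-Ig, where replicate 4 lay inside the control range. With the longest transcript as the length its control mean was 0.178, and 0.434 with all exons. Of the summed subunit transcripts, Relb made up 10.0 ± 2.71% without and 4.65 ± 0.861% with the decoy (SD, n = 4 each), and Nfkb2 6.88 ± 0.848 and 3.92 ± 1.13%. For both the groups did not overlap with either length. Rela made up 64.4 ± 4.26 and 72.9 ± 3.82% (SD, n = 4 each), apart between the groups with all exons as the length and overlapping with the longest transcript.

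**Figure D3:**
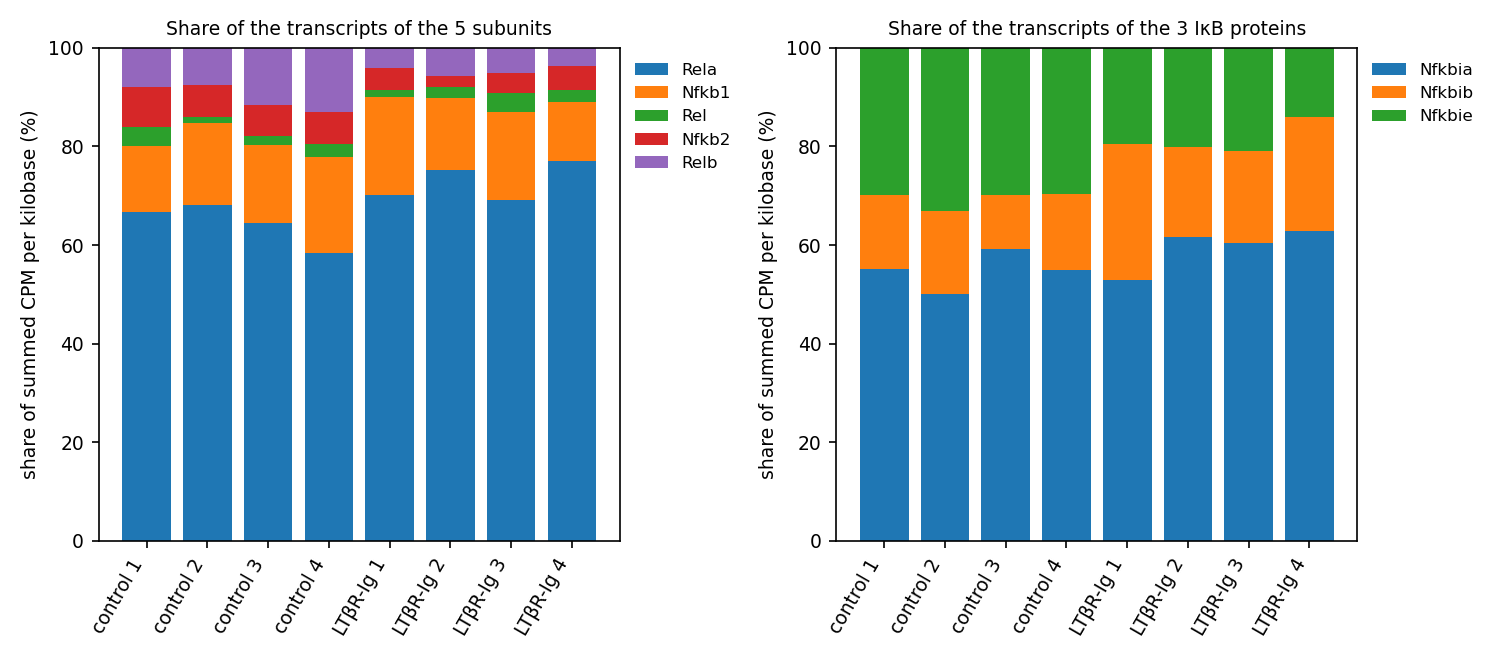
Share of each gene in the summed CPM per kilobase of exon, per library, for the 5 subunits on the left and the 3 IκB proteins on the right. The shares of Relb, Nfkb2 and Nfkbie are smaller in every LTβR-Ig library than in any control library.

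The inhibitors were also set against the subunits. The ratio of Nfkbia to Rela was 1.11, 1.21, 1.57 and 1.44 in the controls and 0.623, 0.924, 0.889 and 0.649 with LTβR-Ig. It was above 1 in every control and below 1 in every LTβR-Ig library. The summed IκB transcripts per summed subunit transcripts came to 1.56 ± 0.162 without and 0.942 ± 0.159 with the decoy (SD, n = 4 each), and to 1.12 and 0.682 with the longest transcripts as lengths, without overlap in either case. These are transcript ratios, and protein levels were not measured.

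Other genes of the pathway were counted from lists that were also chosen with earlier results known. Of 16 tested receptors and ligands, 2 were higher and 0 were lower by edgeR at an unadjusted p under 0.05, against 3.39 and 2.93% of all genes, with a median log2 fold change of 0.015. The higher count was 0 with limma-voom and when control replicate 1 or LTβR-Ig replicate 2 was left out and 1 when LTβR-Ig replicate 1 or 4 or control replicate 2 or 3 was. The lower count was 1 when control replicate 2 or LTβR-Ig replicate 3 was left out. With the replicate number as a block, 1 was higher and 1 was lower. The smallest p-values were those of Tnfrsf12a, the receptor for TWEAK (1.31), Ltbr, the receptor whose ligands the decoy binds (0.36), and Tnfsf12, which encodes TWEAK (0.29). Their edgeR adjusted p was 0.748, 0.751 and 0.895. Of the genes for ligands of this receptor, Lta and Ltb were near 0 in the sorted cells, at most 2.72 and 0.809 CPM. Tnfsf14, which encodes the ligand LIGHT, was at 0.607 to 9.76 CPM in control and 3.11 to 13.3 CPM in LTβR-Ig libraries, so the groups overlapped.

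Among 22 adaptors and kinases, 3 were lower and 0 were higher by edgeR at an unadjusted p under 0.05, against 2.93 and 3.39% of all genes, and the median log2 fold change was -0.15. With limma-voom 3 were lower and 3 were higher, and with DESeq2 3 were lower and 1 was higher. In edgeR fits that each left out a library, the lower count stayed at 3 only without control 4 and without LTβR-Ig 4. It fell to 1 without LTβR-Ig 3 and to 2 when any other library was omitted. The higher count rose to 1 in the fits without control 1, without control 3 and without LTβR-Ig 4. The lower 3 were Map3k14, which encodes NIK (-0.89), Traf2, an adaptor of TNF family receptors (-0.64), and Birc3, which encodes a ubiquitin ligase that acts with it (-0.71). Of 18 tested regulators of IκB and NF-κB, 3 were lower and 1 higher, against the same shares of all genes, with a median of -0.075. Among them 0 were higher when LTβR-Ig replicate 2 or 3 was left out and with the replicate number as a block. Without control replicate 1 or 3, 4 were lower. The lower 3 were Cyld, a deubiquitinase (-1.23), Tnip1, which encodes a partner of A20 (-0.50), and Tnfaip3, which encodes A20 (-1.33). The higher 1 was Otulin, which encodes a deubiquitinase of linear ubiquitin chains (0.66, edgeR adjusted p = 0.657). The groups did not overlap in Cyld, Tnip1, Tnfaip3 and Map3k14, all lower with LTβR-Ig, and in Otulin and the adaptor gene Traf1, both higher, against 2.53% of all genes for lower and 2.36% for higher. Otulin was at 8.37 ± 0.221 and 13.2 ± 3.03 CPM, and Traf1, a low gene, at 0.605 ± 0.967 and 3.74 ± 1.39 CPM in control and LTβR-Ig libraries (SD, n = 4 each). The edgeR adjusted p lay at 0.42 or above for each of the 6 lower genes, with Map3k14 and Cyld the lowest at 0.4215.

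Of 26 tested NF-κB target genes outside the family, 10 were lower and 1 was higher by edgeR at an unadjusted p under 0.05 (8 to 11 and 1 over the alternatives), against 2.93 and 3.39% of all genes, with a median log2 fold change of -0.77. The complement gene C3 passed over all genes (log2 fold change -3.64, SE 0.15, edgeR adjusted p = 3.92e-05). The chemokine genes Ccl7 (-1.89, edgeR adjusted p = 0.061) and Ccl2 (-1.19, edgeR adjusted p = 0.0865) came next. C3, at 1422 ± 242 CPM without and 114 ± 12.7 CPM with the decoy (SD, n = 4 each), thus differed by more than any of the 10 family genes. The gene that was higher was Tnfsf11, which encodes RANKL, at 75.1 ± 12.7 and 180 ± 73.1 CPM (SD, n = 4 each) without overlap between the groups (log2 fold change 1.26, edgeR adjusted p = 0.252). Dissociation stress genes are known to be induced when tissue is digested. At an unadjusted edgeR p under 0.05, 0 of 18 were lower and 2 of 18 higher, against 2.93 and 3.39% of all genes. The log2 fold change was above 0 in 14 of 18, with a median of 0.38, and in 7980 of all 16045 genes tested. In 1 of 18 the groups did not overlap, with higher levels, against 2.36% of all genes. The summed level of the stress genes was 0.0967 to 0.132% of TMM-scaled counts without and 0.0971 to 0.17% with the decoy, so the groups overlapped. Their part in the levels of the NF-κB genes was not tested.

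**Figure D4:**
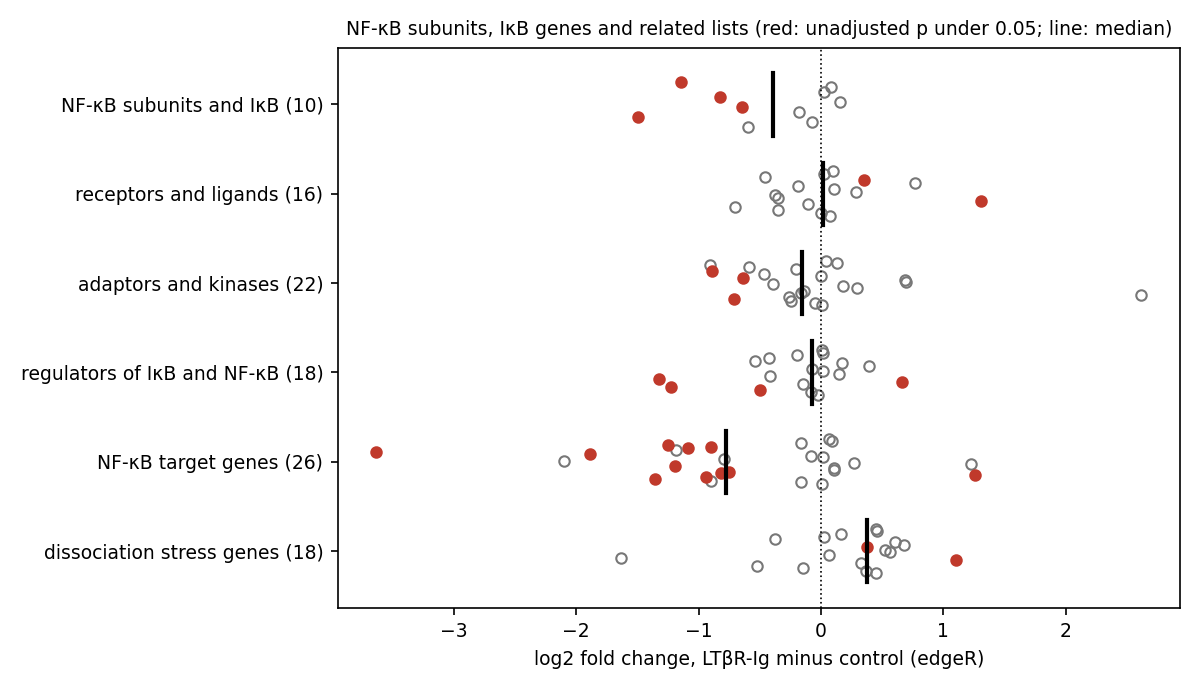
Log2 fold change, LTβR-Ig minus control, of the NF-κB subunit and IκB genes and of the genes in 5 related lists, with the number of tested genes in brackets. Filled red points have an unadjusted edgeR p under 0.05 and the black line is the list's median, which is -0.39 for the family, -0.77 for its target genes and 0.38 for the stress genes.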

How the data were processed

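PolyA RNA of sorted LEPR+ cells was sequenced as paired reads of 76 bases, per the labels' protocols. HISAT2, HTSeq and the build mm10 are named in the submitters' processing notes; which annotation, versions and strand setting were used is not given in the sources used here. Raw counts per gene, without normalization, are what the authors deposited. Groups and replicate numbers came from the sample titles. Gene IDs without version were joined to GENCODE M21 (GRCm38, the assembly of mm10), which matched 52489 of 52636.

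Counts were tested in edgeR 4.0.16 (R 4.3.3) with TMM scaling, filterByExpr (minimum count 10, minimum total 15), robust quasi-likelihood fits on all 8 libraries without covariates and Benjamini-Hochberg adjustment over 16045 genes, with 0.05 as the threshold. SE is the size of the log2 fold change over the square root of F. Tested on simulated counts for this comparison (15322 genes), it found 18% of genes lowered to 0.5 of control, 70% of those lowered to 0.25, and 28 and 78% of those raised 2-fold and 4-fold. Chi-square per degree of freedom between replicates was 140 or more in all pairs, so no library was counted as a repeat.

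The genes, classes and lists were chosen with earlier results of these data known. By rule all 10 genes were named, with the 3 of smallest p from each pathway and target list; genes that overlap a named gene, the cell type markers, the 3 ligand genes, Otulin, Traf1 and Tnfsf11 were named after their values were seen. Tried as alternatives were upper-quartile factors and DESeq2 size factors in edgeR, DESeq2 1.42.0, limma-voom (limma 3.58.1) with sample weights, no filter, a filter of 10 counts in 4 libraries with a mean of 5 CPM, the replicate number as a block, leaving out each library, and the longest transcript as gene length. A term for replicate numbers 1 and 2 against 3 and 4 was added after the principal components were seen. Promoter windows of 300 bases came from RefSeq.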

Additional observations from a re-analysis of the deposited data

Results flagged for a closer look

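In a group of 4 libraries, a library was looked at again when the distance to its nearest neighbour made up most of the range of the group (Dixon's criterion). By chance about 1 in 20 groups holds such a library. Of 50 combinations of a gene level or ratio with a group, 4 stood apart, all in the control group. Control replicate 1 had 18.1 CPM of Nfkb2, where the other controls had 13.7 to 14.3 CPM, and its share of subunit transcripts there was 8.14% against 6.36 to 6.52%. The ratio of Nfkbie to Nfkbib was 2.75 in control replicate 3 against 1.93 to 2.02. The share of Nfkbie among IκB transcripts was 33.2% in control replicate 2 against 29.6 to 29.9%. In each case the control value that stood apart was the one farthest from the LTβR-Ig libraries, and the groups also did not overlap without it.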

How the results depend on the processing

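Over 16 alternatives, the count of 4 genes lower at an unadjusted p under 0.05 was 3 to 5, and none of the 10 was higher in any of them. The count was 3 without control replicate 1 or LTβR-Ig replicate 3, when Nfkb2 missed it, and 5 with DESeq2, limma-voom or without LTβR-Ig replicate 4, when Nfkbiz joined. The number of genes past the adjusted threshold, 6 of 16045, was 339 with DESeq2, 17 with limma-voom, 22 with the strict filter and 1 with the replicate block, and 2 to 9 when a library was left out, with 2 when it was control replicate 3. The cause was not tested. Nfkbie had an edgeR adjusted p of 0.0604 to 0.227 without each library in turn, and its log2 fold change lay between -1.64 and -1.39. Relb was at -1.26 to -1.02, Nfkbia at -0.76 to -0.52, Nfkb2 at -1.06 to -0.63 and Nfkbiz at -0.79 to -0.40, while Rel went from -0.17 to 0.38 and Bcl3 from -0.28 to 0.29. Of 160 values for the 10 genes, 148 kept direction and side of the threshold, 4 came to pass it (Nfkbie in DESeq2, limma-voom and the strict filter, Relb in DESeq2) and 8 changed sign, all of Rel or Bcl3. Rel had -0.17 and -0.10 without control replicates 2 and 3, -0.13 and -0.10 without LTβR-Ig replicates 3 and 4, and -0.030 with the term for numbers 1 and 2 against 3 and 4. Bcl3 had -0.094 in limma-voom, -0.031 with the replicate block and -0.28 without LTβR-Ig replicate 2. Same-numbered libraries correlated at -0.000816 to 0.106, and 1 of 4 control libraries correlated best with its own number. The design mentions pairs without stating what they share, so whether the numbers mark pairs is not settled, and the block was kept as an alternative. With the block the count of lower genes stayed at 4 and Nfkbie had -1.51 (edgeR adjusted p = 0.195). At this number of libraries most 2-fold differences would be missed.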
